A study of Mus musculus with 28 samples.

Results

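The 9 genes described here encode the transcription factors and nuclear receptors that set and keep the identity of the hepatocyte: Hnf4a, Foxa1, Foxa2, Foxa3, Cebpa, Nr1i2, Nr1i3, Nr1h4 and Onecut1. They were chosen by name, and all 9 were found among 35858 gene symbols of one set of files and among 24849 rows of the other. The livers came from mice in which human APOBEC3B fused to turboGFP, A3B, sits in the ColA1 locus behind a doxycycline-inducible promoter, with the CAGs-rtTA3 transactivator driving it in most tissues. Hepatocytes are therefore not the only liver cells that can express A3B.

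The first set, called the kallisto livers, held 6 A3B livers labelled A3B + CAGS-rtTA and 2 control livers labelled A3B alone, all with 10 days of doxycycline per the labels. The second set, called the TPM-table livers, held 3 A3B livers (mice 23 and 28 with 14 days, mouse 70 with 10 days) and 3 control livers with 15 days in the labels. Of these controls, mice 91 and 92 were labelled A3B alone, and mouse 11 was labelled with both transgenes, like the A3B mice. The study's own text gives the controls both with and without doxycycline, so the effect of the drug and that of A3B cannot be told apart here. The row of human APOBEC3B, present in the TPM table only, read 705 to 1705 TPM (a length-normalised share of all transcripts, on a scale with a fixed sum) in the 3 A3B livers and 0.0928 to 0.144 in the 3 controls, mouse 11 included. The kallisto livers had from 65161064 to 118976013 estimated counts each.

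HNF4A is a nuclear receptor that binds DNA as a homodimer and switches on much of the adult hepatocyte programme. The FOXA proteins open chromatin at liver enhancers, C/EBPα drives metabolic genes and restrains proliferation, and HNF6, the product of Onecut1, acts in liver and biliary development. PXR (Nr1i2) and CAR (Nr1i3) sense foreign compounds and induce drug-metabolizing enzymes, and FXR (Nr1h4) senses bile acids.

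Promoter sequences are shown for the members whose level or start site the results turn on. They are RefSeq windows on GRCm38.p6, from 250 bases before the start to 50 after it, 5′ to 3′ on the strand of the gene. All 9 members matched the RefSeq table, with 12 windows between them. Both strands were searched. The motif of FOXA factors was spelled TGTTTAC in this search. The motif of C/EBP factors was spelled TTNNGCAA in this search. For HNF1 the core letters were GTTAAT and for HNF6 the core letters were ATTGAT throughout. The core of nuclear receptor sites was spelled AGGTCA and the TATA box was searched as TATAAA in every window. Capitals mark the matches in either orientation, and no matches overlapped. The windows are Hnf4a P1 at chr2:163546905-163547204 (+), Hnf4a P2 at chr2:163506607-163506906 (+), Cebpa at chr7:35119043-35119342 (+), Foxa3 at chr7:19023490-19023789 (-) and the internal start of Nr1h4 at chr10:89506609-89506908 (-).
Hnf4a P1: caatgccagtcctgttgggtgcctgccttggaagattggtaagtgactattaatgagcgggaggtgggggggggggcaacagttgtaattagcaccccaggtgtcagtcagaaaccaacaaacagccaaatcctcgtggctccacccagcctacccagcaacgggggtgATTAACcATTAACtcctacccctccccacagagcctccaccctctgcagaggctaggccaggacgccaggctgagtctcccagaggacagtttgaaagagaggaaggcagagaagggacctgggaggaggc
Hnf4a P2: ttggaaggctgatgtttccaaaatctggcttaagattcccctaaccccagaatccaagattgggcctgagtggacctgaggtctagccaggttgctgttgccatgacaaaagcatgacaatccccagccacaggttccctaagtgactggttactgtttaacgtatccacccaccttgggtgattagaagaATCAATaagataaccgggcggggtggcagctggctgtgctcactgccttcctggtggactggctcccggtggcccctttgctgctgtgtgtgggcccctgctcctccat
Cebpa: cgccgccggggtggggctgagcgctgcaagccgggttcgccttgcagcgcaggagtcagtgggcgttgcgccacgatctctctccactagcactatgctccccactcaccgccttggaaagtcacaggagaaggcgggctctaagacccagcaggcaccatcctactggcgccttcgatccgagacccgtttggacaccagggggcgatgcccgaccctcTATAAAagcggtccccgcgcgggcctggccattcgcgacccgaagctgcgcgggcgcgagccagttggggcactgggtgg
Foxa3: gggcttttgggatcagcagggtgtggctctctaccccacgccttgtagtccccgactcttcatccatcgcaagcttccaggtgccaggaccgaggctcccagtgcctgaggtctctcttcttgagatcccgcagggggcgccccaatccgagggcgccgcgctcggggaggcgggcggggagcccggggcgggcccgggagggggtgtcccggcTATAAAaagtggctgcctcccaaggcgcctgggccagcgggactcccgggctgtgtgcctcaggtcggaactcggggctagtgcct
Nr1h4 internal: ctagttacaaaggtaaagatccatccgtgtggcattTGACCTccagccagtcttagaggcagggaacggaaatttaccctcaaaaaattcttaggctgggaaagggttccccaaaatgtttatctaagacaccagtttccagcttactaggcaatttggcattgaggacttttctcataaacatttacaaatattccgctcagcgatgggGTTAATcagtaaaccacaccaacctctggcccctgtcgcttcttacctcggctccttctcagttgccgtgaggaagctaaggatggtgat

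The P1 window of Hnf4a held 2 HNF1 core matches side by side, beginning 81 and 74 bases before the start, and the P2 window held 1 HNF6 core match 59 bases before it. The Cebpa and Foxa3 windows each held a TATA box, 30 and 36 bases before the start. The internal Nr1h4 window held an HNF1 core match and a nuclear receptor core match. Over 32851 promoter windows of the same length, 7.1% held the HNF1 core letters, 7.54% the HNF6 core, 16.3% the nuclear receptor core and 13.6% the TATA box. The FOXA letters stood in 3.65% of all windows and in 1 member window, that of Foxa1. The C/EBP letters stood in 10.8% of all windows and in no member window.

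Across the 14 livers, 2 of the 9 regulators were lower with A3B when both sets were fitted together, Cebpa and Foxa3, and none was higher. In that fit, 39.0% of the 10148 genes tested passed the threshold, an adjusted p under 0.05, and 8.42% passed it as lower and 30.6% as higher. Hnf4a, the factor at the centre of the network, did not pass, at a log2 fold change of 0.76 ± 0.30 (SE) and an adjusted p of 0.0506. It passed as higher with the Y-chromosome covariate (adjusted p = 0.0483), with a pseudocount of 0.1 (adjusted p = 0.0499), and without A3B liver 28 (adjusted p = 0.015), 48 (adjusted p = 0.0234) or 49 (adjusted p = 0.0383). In each set alone no member passed, where 3.66% of 17365 genes passed in the kallisto livers and 7.93% of 11507 in the TPM-table livers. In those single-set fits the members showed 2 unadjusted p-values under 0.05 in the kallisto livers (Foxa3 and Onecut1) and 2 in the TPM-table livers (Foxa3 and Cebpa), where 22.9% and 32.6% of all genes did. DESeq2 and limma on log2(TPM + 1), run as alternatives on the kallisto livers, also called none. Unless said otherwise, values for the kallisto livers came from edgeR. Those for the TPM-table livers and for both sets came from limma, so the fits differ in scaling too. By limma the kallisto livers gave 0.93 for Hnf4a, -0.21 for Foxa1, -0.43 for Foxa3, -0.78 for Cebpa and -0.79 for Onecut1.

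**Figure D1:**
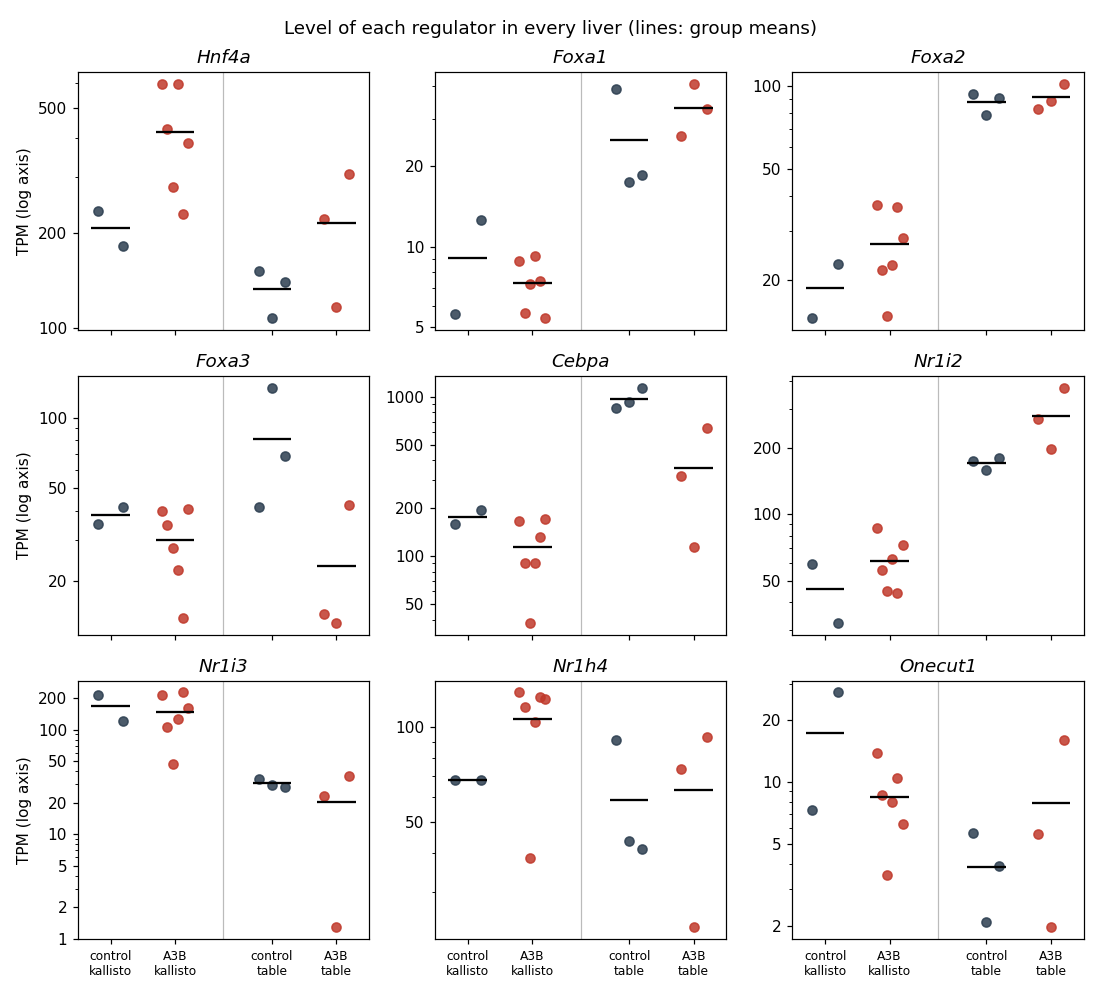
TPM of each of the 9 regulators (log axis) in every liver, 1 point per mouse and a line at each group mean; the kallisto livers are left and the TPM-table livers right in each panel. All 3 A3B livers of the TPM table lie below all 3 controls for Cebpa and above them for Nr1i2.

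Cebpa, the gene of C/EBPα, had the lowest log2 fold change of the members in the fit over both sets. In the TPM-table livers Cebpa read 318, 114 and 640 TPM with A3B against 857, 929 and 1136 TPM in the controls. In the kallisto livers it ranged from 38.1 to 170 TPM with A3B, with a median of 111, against 158 and 196 TPM in the 2 controls. The groups did not overlap in the table and overlapped in the kallisto livers, where 4 of 6 A3B livers were below both controls. Groups that did not overlap were seen for 38.9% of genes in the TPM table and 29.7% in the kallisto livers.

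The log2 fold change of Cebpa was -1.02 ± 0.47 in the kallisto livers (adjusted p = 0.23), -1.76 ± 0.59 in the TPM-table livers (adjusted p = 0.0945) and -1.27 ± 0.42 over both (adjusted p = 0.0263), a 2.41-fold lower level. The call was lost without A3B liver 28 (-0.92, adjusted p = 0.0519), without control 168 (adjusted p = 0.0509), without control 91 (adjusted p = 0.0535) and without control 92 (adjusted p = 0.0635).

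Foxa3, the third FOXA gene of the liver, also fell over both sets. In the TPM table it read 14.5, 13.3 and 42.2 TPM with A3B and 41.6, 134 and 68.4 TPM in the controls. In the kallisto livers it ranged from 14.0 to 40.7 TPM with A3B, with a median of 31.2, against 35.2 and 41.4 TPM. Both sets overlapped, the table only through A3B liver 70 and control 11. The log2 fold change was -0.78 ± 0.31 in the kallisto livers (adjusted p = 0.177), -1.79 ± 0.58 in the table (adjusted p = 0.0861) and -1.11 ± 0.38 over both (adjusted p = 0.0314), or 2.16-fold lower. The call was lost without the filter on low genes (adjusted p = 0.0566) and without A3B liver 23 (adjusted p = 0.0745), A3B liver 28 (adjusted p = 0.0701), control 91 (adjusted p = 0.0832) or control 92 (adjusted p = 0.0677).

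The summed level of 13 hepatocyte markers was also lower in every A3B liver than in any control of its set. It ranged from 66698 to 120885 TPM with A3B and from 141167 to 199423 TPM in the kallisto controls, and from 26545 to 35330 against 37588 to 50541 TPM in the table. A single gene carried much of each sum. Alb averaged 81238 TPM in the kallisto controls, and Trf averaged 24021 TPM in the controls of the table. Among single genes, 29.7% in the kallisto livers and 38.9% in the table showed no overlap between groups. In the fit over both sets 6 of these 13 fell and none rose, where 8.42% of all genes fell: Alb (-0.90), Ttr (-1.17), Trf (-1.06), Cyp2e1 (-2.01), Fabp1 (-1.16) and Ambp (-0.91). Their part in the falls of Cebpa and Foxa3 was not tested. In bulk tissue, fewer hepatocytes and less RNA per hepatocyte cannot be told apart. A3B liver 28 stood apart in the table, with Cyp2e1 at 99.9 TPM against 1397 and 1617 in the other A3B livers and Sox9, a biliary and progenitor factor, at 15.2 against 0.983 and 1.03. A3B liver 48 stood apart among the kallisto livers, with 60933 transcripts holding counts against 67872 to 75504 in the rest. Without both, an alternative chosen after seeing the data, Cebpa still passed as lower over both sets and Foxa3 did not pass (-0.82, adjusted p = 0.0814), while Hnf4a (1.04, adjusted p = 0.00375) and Nr1i2 (0.69, adjusted p = 0.0248) passed as higher.

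Hnf4a read 230 to 596 TPM in the 6 A3B livers of the kallisto set, with a median of 407, against 234 and 182 TPM in the controls. In the table it read 221, 116 and 308 TPM with A3B and 151, 107 and 140 TPM in the controls. In the kallisto livers 5 of 6 A3B livers were above both controls, and in the other set 2 of 3 were above all controls. The log2 fold change was 0.63 ± 0.44 (adjusted p = 0.416) in the kallisto livers and 0.60 ± 0.41 (adjusted p = 0.341) in the table. The median gene also stood higher with A3B, at 0.38 over both sets, and with each sample centred on its median gene Hnf4a was at 0.39 (adjusted p = 0.288).

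Foxa1 and Foxa2 are close paralogs that act with HNF4A at shared enhancers. Foxa1 ranged from 5.38 to 9.21 TPM with A3B in the kallisto livers, with a median of 7.31, against controls of 5.57 and 12.6, with 1 A3B liver below both. Foxa2 ranged from 14.8 to 37.3 TPM with A3B, with a median of 25.5, against 14.5 and 22.8. In the table, Foxa1 read 25.9, 40.7 and 32.7 TPM against 38.9, 17.4 and 18.5, and Foxa2 read 82.5, 88.2 and 102 against 93.9, 78.4 and 90.3. Neither gene separated the groups in either set. Foxa1 had a log2 fold change of -0.76 ± 0.36 (adjusted p = 0.237) in the kallisto livers, 0.01 without control 168, and 0.47 ± 0.39 (adjusted p = 0.427) in the table. That of Foxa2 was 0.28 ± 0.42 (adjusted p = 0.73) and 0.05 ± 0.27 (adjusted p = 0.906). Over both sets the log2 fold change of Foxa1 was 0.13 ± 0.26 (adjusted p = 0.722) and that of Foxa2 was 0.26 ± 0.23 (adjusted p = 0.385). With each sample centred on its median gene, both turned negative, at -0.25 and -0.11.

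Onecut1, the gene of HNF6, was low and variable. It ranged from 3.53 to 13.9 TPM with A3B in the kallisto livers, with a median of 8.3, while the controls read 7.31 and 27.3. In the table it read 5.56, 1.96 and 16.1 TPM with A3B against 5.65, 2.07 and 3.9. Control 168 alone lay above every A3B liver of its set. The log2 fold change was -1.34 ± 0.56 in the kallisto livers (adjusted p = 0.191), and 0.12 without control 168. In the table it was 0.58 ± 0.64 (adjusted p = 0.547).

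**Figure D2:**
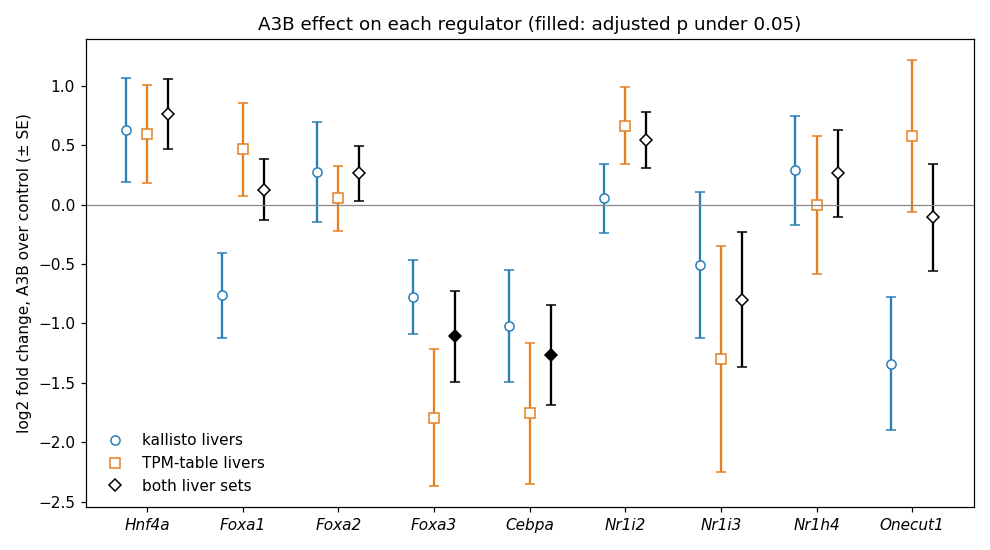
Log2 fold change of A3B over control (y axis) with its standard error for each regulator in the kallisto livers (circles), the TPM-table livers (squares) and both sets together (diamonds). The only filled symbols, an adjusted p under 0.05, are Foxa3 at -1.11 and Cebpa at -1.27 over both sets.

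Among the nuclear receptors, PXR (Nr1i2) read 270, 197 and 373 TPM with A3B in the table and 175, 158 and 180 TPM in the controls. In the kallisto livers it ranged from 44.1 to 87.0 TPM with A3B, with a median of 59.2, against 59.7 and 32.2. The groups did not overlap in the table and overlapped in the kallisto livers. The log2 fold change was 0.05 ± 0.29 (adjusted p = 0.932) in the kallisto livers, 0.66 ± 0.33 (adjusted p = 0.199) in the table and 0.55 ± 0.24 (adjusted p = 0.0786) over both. By limma on log2(TPM + 1), as used for the latter fits, the kallisto livers gave 0.43. Over both sets the value was 0.17 (adjusted p = 0.55) with samples centred on their median gene. Nr1i2 passed as higher there without A3B liver 48 (adjusted p = 0.0441) or control 45 (adjusted p = 0.0431).

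CAR (Nr1i3) varied most between livers, with an SD of 1.06 on the log2 scale over the 14 livers. It read 23.4, 1.29 and 36.3 TPM with A3B in the table against 33.5, 29.5 and 28.5, so that A3B liver 28 alone was far below the rest. In the kallisto livers it ranged from 47.2 to 226 TPM with A3B, with a median of 144, against 213 and 121. The log2 fold change over both sets was -0.80 ± 0.57 (adjusted p = 0.277), and -0.19 without A3B liver 28.

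FXR (Nr1h4) was above both controls in 5 of 6 A3B livers of the kallisto set and below both in the other, liver 49. Liver 49 was also the lowest A3B liver of its set for Foxa2, Cebpa, Nr1i3, Onecut1 and the summed hepatocyte markers. Nr1h4 ranged from 38.4 to 129 TPM with A3B, with a median of 120, against 67.8 and 68.0. In the table it read 73.9, 23.2 and 93.1 TPM against 91.4, 43.5 and 41.0, with no separation. Its log2 fold change was 0.29 ± 0.46 (adjusted p = 0.745) in the kallisto livers, -0.01 ± 0.58 (adjusted p = 0.996) in the table and 0.26 ± 0.37 (adjusted p = 0.592) over both.

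A test of the difference of the A3B effect between the sets called no gene of 10148 (0.0%), although 234 had an unadjusted p under 0.05. No member was among those 234. The members with the largest differences, table minus kallisto, were Foxa3 at -1.37 ± 0.71 (unadjusted p = 0.0732) and Onecut1 at 1.37 ± 0.86 (unadjusted p = 0.132).

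Levels per length differed by gene and by set. In the kallisto controls the order of mean levels was Hnf4a (208 TPM), Cebpa (177), Nr1i3 (167), Nr1h4 (67.9), Nr1i2 (45.9), Foxa3 (38.3), Foxa2 (18.6), Onecut1 (17.3) and Foxa1 (9.08). Hnf4a and Nr1i3 overlapped with Cebpa between the 2 livers, and between them Foxa2 changed places with Onecut1 and Nr1i2 with Foxa3. In the controls of the other set it was Cebpa (974 TPM), Nr1i2 (171), Hnf4a (133), Foxa2 (87.5), Foxa3 (81.4), Nr1h4 (58.6), Nr1i3 (30.5), Foxa1 (25.0) and Onecut1 (3.87), where the ranges of Nr1i2 and Hnf4a did not overlap and those of Foxa2, Foxa3 and Nr1h4 did. Both sets were quantified differently, and levels were compared between groups only within a set.

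Outside the liver, some members were abundant in control lung, and none was in control pancreas. Bulk tissue does not show which lung cells hold them. In control lungs Foxa1 (51.2 to 84.5 TPM), Foxa2 (95.0 to 143) and Cebpa (314 to 416) were abundant, and Onecut1 did not exceed 0.106 TPM. Hnf4a read 0, 2.79 and 0.143 TPM in the control lungs of mice 87, 88 and 91 and 0.148, 10.7 and 9.4 TPM in the A3B lungs of mice 69, 70 and 74. Albumin, made by hepatocytes, read 245 TPM in lung 88 and 190 and 216 TPM in lungs 70 and 74, against 0.331 to 23.6 TPM in the other lungs. The part of liver RNA in these Hnf4a values was not tested.

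In control pancreases all 9 members were at or below 6.94 TPM. The genotype labels of both control pancreases (45 and 168) and of A3B pancreases 44 and 137 contradict their titles, which gave the groups here. In the A3B pancreases Hnf4a ranged from 11.6 to 35.9 TPM, Cebpa from 28.5 to 41.3 TPM and Nr1h4 from 13.7 to 25.7 TPM. All 6 A3B pancreases were above both controls for 7 members, the exceptions being Foxa1 and Nr1i3. The same held for 82.1% of the 13517 genes averaging 1 TPM or more, and the median gene was 5.02-fold higher.

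**Figure D3:**
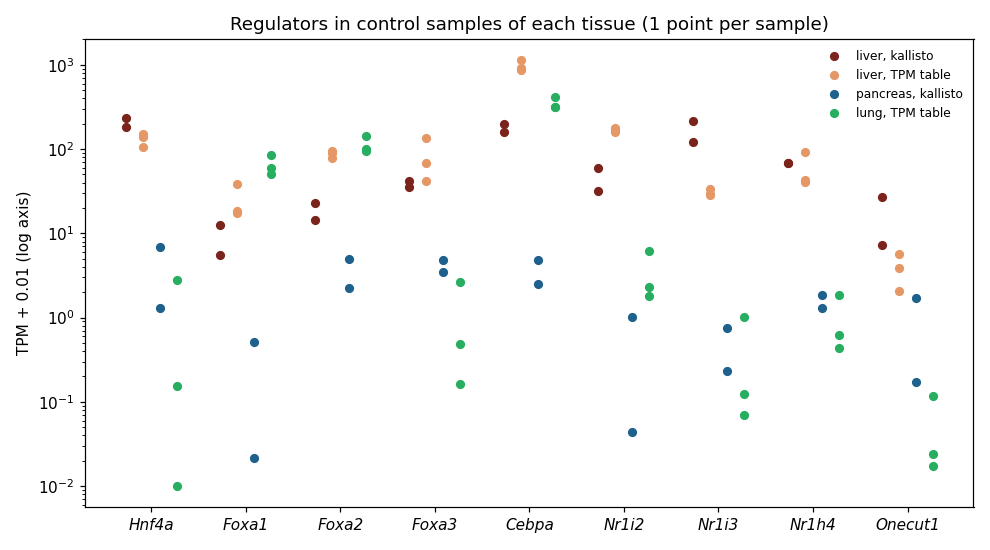
TPM + 0.01 (log axis) of each regulator in control samples, 1 point per sample, for liver of both sets, pancreas and lung. Hnf4a, Foxa3, Nr1i2, Nr1i3, Nr1h4 and Onecut1 are highest in liver, while Foxa1, Foxa2 and Cebpa are abundant in lung as well. Within the kallisto set Onecut1 read 7.31 TPM in liver 45 and 1.71 in pancreas 168. The sets were quantified differently, so points of different sets are not comparable in level.

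The kallisto files also gave levels per transcript. Hnf4a has P1, the promoter of adult liver, and P2, active in fetal liver and pancreas. P1 transcripts held 98.3% to 99.7% of Hnf4a TPM in the A3B livers and 98.2% and 98.8% in the controls. The P2 transcript ranged from 0 to 1.98 TPM with A3B and read 0.736 and 0.397 TPM in the controls, from 0 to 33 estimated counts per liver. The 2 P1 transcripts differ in length by 6 bases, so their split was not interpreted: A3B liver 48 gave 0.394 TPM to one and 229 to the other.

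Nr1h4 is read from an upstream and an internal start, which give FXR forms with different N-termini. The internal start, whose promoter is printed above, held 47.3% and 49.3% of Nr1h4 TPM in the controls and from 42.7% to 80.2% with A3B, with a median of 62.9%. It was above both controls in every A3B liver but liver 48. In TPM, internal transcripts ranged from 20.4 to 86.5 with A3B against 32.1 and 33.5, and upstream transcripts from 18 to 71.4 against 35.7 and 34.5.

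Transcripts of Nr1i3 annotated with a retained intron or as targets of nonsense-mediated decay held 35.7% and 30.7% of its TPM in the controls and from 30.7% to 68.1% with A3B, with a median of 48.0%. The Foxa2 transcript with an internal start held 76.1% of Foxa2 TPM in A3B liver 48 and from 12.6% to 41.9% in the other A3B livers, against 19.1% and 18.1%. The spliced Cebpa transcript held 88.1% in A3B liver 48 and from 41.4% to 51.3% in the others, against 56.3% and 56.1%. A processed Onecut1 transcript held 30.4% and 21.1% of Onecut1 TPM in the controls and from 7.76% to 18.1% with A3B, lower in all 6 A3B livers, from 34 to 490 estimated counts per liver. No test was run on any transcript share, that of the internal Nr1h4 start included. How often transcript shares of other genes separate the groups was not measured. For the TPM of whole genes, 29.7% showed no overlap between groups in the kallisto livers.

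**Figure D4:**
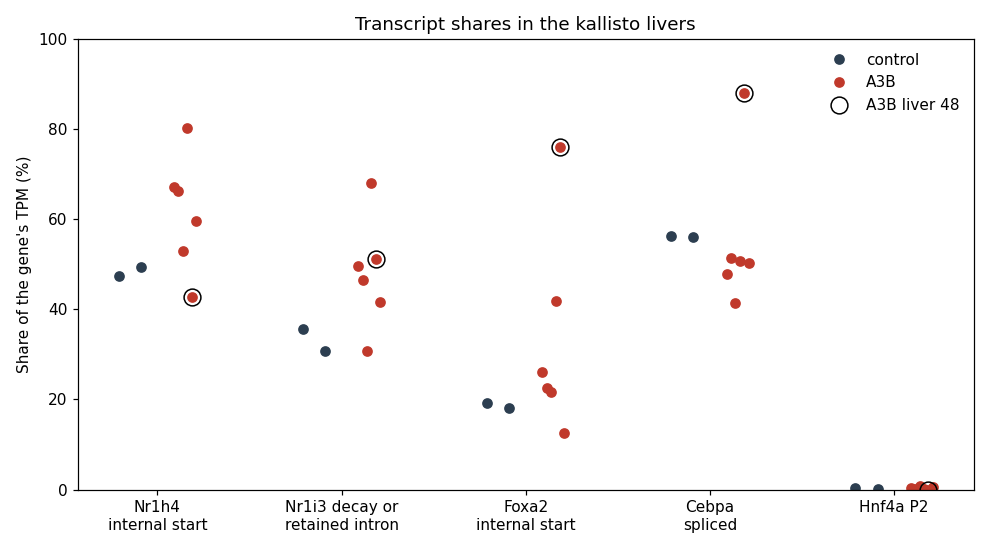
Share of each gene's TPM (%, y axis) held by the named transcripts in the 8 kallisto livers, controls dark and A3B red, with A3B liver 48 ringed. The internal Nr1h4 start is at 47.3% and 49.3% in the controls and reaches 80.2% with A3B, and liver 48 stands apart for the internal Foxa2 start and the spliced Cebpa transcript.

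Over the 14 livers, the genes nearest to each member in pattern were ranked by the root mean square difference of log2(TPM + 1), with each gene centred in each set, among 10148 genes. For Cebpa they were Proc, which encodes the anticoagulant protein C (0.27), and Tecr (0.32), where the median gene stood at 1.17. For Nr1i3 they were Gckr, the glucokinase regulator (0.23), and Naprt (0.33), and for Foxa3 they were Iah1 (0.39) and Angptl6 (0.41). For Hnf4a they were Golgb1 (0.21) and Fem1a (0.22), for Foxa1 Slc35e3 (0.17) and Arfgef1 (0.23), and for Foxa2 Cops7b (0.20). For Nr1i2 they were Nono (0.18) and Hbs1l (0.19), and for Nr1h4 Plpp3 (0.25) and Taz (0.26). For Onecut1 they were Echdc2 (0.51) and Atrn (0.52). The median gene stood at 0.968 for Onecut1, and ranged over the members from 0.573 for Nr1i2 to 1.265 for Nr1i3. The difference depends on how much each gene varies, so members were not ranked against each other by it.

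Of 41 other liver regulators tested in the kallisto livers, 3 rose and 1 fell, where 1.26% of all genes rose and 2.41% fell, and their median log2 fold change was -0.09 against 0.21 for all genes. Cebpd, an acute-phase C/EBP factor, ranged from 6.24 to 12.7 TPM with A3B against 1.76 and 1.8 in the controls, a log2 fold change of 2.06 ± 0.38 (adjusted p = 0.0231). Ppargc1a, a coactivator of fasting metabolism, rose by 2.85 ± 0.61 (adjusted p = 0.0373) and Gata6 by 1.51 ± 0.31 (adjusted p = 0.0319). Mlxipl, which encodes the glucose-responsive factor ChREBP, fell by 2.11 ± 0.48 on the log2 scale (adjusted p = 0.0436). Over both sets 12 of 38 rose and 2 fell, where 30.6% of all genes rose and 8.42% fell. Their median was 0.37 against 0.38 for all genes. Each of the 4 calls in the kallisto livers was lost when either control was left out.

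Of 23 genes listed as HNF4A targets, 4 fell and none rose in the kallisto livers, with a median of -0.77. Among all genes tested there 2.41% fell and 1.26% rose, with a median of 0.21. Dio1, the deiodinase that activates thyroid hormone, ranged from 0.8 to 4.72 TPM with A3B against 127 and 143 TPM (log2 fold change -6.65 ± 0.82, adjusted p = 0.00574). Baat, which conjugates bile acids, was at -1.42 ± 0.27 (adjusted p = 0.0248) and Trf, transferrin, at -1.94 ± 0.46 (adjusted p = 0.0486). Of 22 tested in the TPM-table livers 3 fell and none rose, with Dio1 at -4.81 (adjusted p = 0.0109). There 7.93% of all genes passed in either direction, with a median of 0.39. Over both sets 8 of 22 HNF4A targets fell and 2 rose, with a median of -0.70. Among all genes in that fit 8.42% fell and 30.6% rose, with a median of 0.38.

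Of 11 genes that FXR induces, 2 fell in the kallisto livers, the bile salt pump Abcb11 (-2.09 ± 0.35, adjusted p = 0.0161) and Baat, which is on both lists, and the median was -0.03. All genes tested there had a median of 0.21, and 2.41% of them fell. Of 3 genes that FXR represses none passed, with Slc10a1 at -0.63 (adjusted p = 0.605) and Cyp8b1 at -0.27 (adjusted p = 0.919). In the TPM-table livers none of 9 FXR-induced genes passed, with a median of -1.45, and Cyp8b1 was at -3.41 ± 2.09 (adjusted p = 0.29). Over both sets 3 of the 9 fell and 1 rose, with a median of -0.92, and none of the repressed genes passed in either other fit. Among all genes over both sets 8.42% fell and 30.6% rose, with a median of 0.38. The all-gene median in the table was 0.39.

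Of 12 targets of C/EBPα and FOXA only Trf passed in the kallisto livers, and their median was 0.08. Among all genes there 3.66% passed, and the median was 0.21. In the TPM-table livers the targets had a median of -0.31 and 1 of them, Igfbp1, rose. There 7.93% of all genes passed, with a median of 0.39. Over both sets, where Cebpa and Foxa3 passed, 3 of the 12 rose and 3 fell, with a median of 0.06. Among all genes in that fit 30.6% rose and 8.42% fell, with a median of 0.38. Igfbp1, an insulin-repressed binding protein, was at 4.27, the amino acid catabolic genes Tat and Tdo2 at 1.71 and 1.12, and the secreted proteins Alb, Ttr and Trf at -0.90, -1.17 and -1.06. Of these, only Trf was named by the fixed rule, and the others were chosen after their values were seen.

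Of 34 PXR and CAR targets tested in the kallisto livers, 2 rose and 2 fell, with a median of -0.59. Among all genes there 1.26% rose and 2.41% fell, with a median of 0.21. Cyp1a2, a cytochrome of drug metabolism, ranged from 3.21 to 31.5 TPM with A3B against 644 and 652 TPM (log2 fold change -5.99 ± 0.80, adjusted p = 0.00725). Cyp3a11, the main inducible CYP3A enzyme of mouse liver, was at -2.78 ± 0.53 (adjusted p = 0.0258) in the kallisto livers and at -0.47 ± 0.79 (adjusted p = 0.7) in the table. Akr1b7 rose by 4.40 ± 0.76 (adjusted p = 0.018), and Gadd45b, a stress-response gene, by 4.93 ± 0.94 (adjusted p = 0.0261). Akr1b7 and Gadd45b rose in the table too, at 3.52 (adjusted p = 0.0204) and 3.85 (adjusted p = 0.0152), and Cyp1a2 fell there at -5.44 (adjusted p = 0.0354). Over both sets 10 of 33 PXR and CAR targets fell and 5 rose, with a median of -0.35. Among all genes in that fit 8.42% fell and 30.6% rose, with a median of 0.38. The kallisto calls of Cyp3a11, Akr1b7, Gadd45b, Abcb11, Baat, Trf, Hbb-bt and Cela1 were lost when either control was left out.

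Markers of other cell types were measured beside these results in the kallisto livers. None of the cholangiocyte and fetal, macrophage, lymphocyte, neutrophil, endothelial or stellate markers passed the edgeR test, and 1 erythroid gene (Hbb-bt, -3.39 ± 0.66, adjusted p = 0.0278) and 1 acinar gene (Cela1, -2.68 ± 0.51, adjusted p = 0.0261) fell. Among 13 hepatocyte markers only Trf passed there, where 2.41% of all genes fell and 1.26% rose. Over both sets the 2 neutrophil genes tested rose (S100a8 at 2.08 and S100a9 at 2.17), 2 of 9 stellate genes fell (Reln at -1.23 and Col3a1 at -1.61), and of 8 endothelial genes Lyve1 rose (2.54) and Clec4g fell (-1.61). Cela1 fell there (-2.88) and in the table (-3.33). Among all genes 30.6% rose and 8.42% fell over both sets, and 7.93% passed in the table. The table gave rises of 1 macrophage gene (Marco, 1.58) and 1 endothelial gene (Lyve1, 3.27). Apart from the genes also named for the kallisto livers, the markers called in these other fits were named after their values were seen. By the kallisto fit, the smallest p of each list without a call belonged to Gpc3 (2.36, adjusted p = 0.0645), Cd68 (1.11, adjusted p = 0.435), Cd8a (1.51, adjusted p = 0.335), Ly6g (3.58, adjusted p = 0.118), Fcgr2b (-1.16, adjusted p = 0.0961) and Reln (-1.87, adjusted p = 0.066). Next were Sox9 (2.09), Adgre1 (-1.04), Gzma (1.77), Mpo (1.83), Stab2 (-1.29) and Col3a1 (-2.27). In these livers Ly6g did not exceed 0.289 TPM, Mpo 0.178 or Cd8a 1.11. In the table Ly6g went the other way, at -1.26 (limma adjusted p = 0.0716), with 2.85 to 5.66 TPM against 7.58 to 14.8. Gzma was also negative there, at -0.47 (adjusted p = 0.687). Cd68, Fcgr2b, Reln, Sox9, Adgre1, Stab2 and Col3a1 kept their direction in the table, and Gpc3, Cd8a and Mpo were not tested there. Summed macrophage markers ranged from 30.6 to 1024 TPM with A3B and read 318 to 343 TPM in the controls. Their part in the members' values was not tested.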

How the data were processed

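RNA-seq of mouse liver, pancreas and lung was used, from TruSeq Stranded libraries. For the kallisto set the authors deposited estimated counts and TPM per transcript, computed with kallisto against mm10; they were summed per gene symbol through GENCODE M21, matching 116640 of 119414 transcripts, and counts were rounded. For the other set the authors deposited TPM per gene, from reads aligned to mm10 with STAR, and the column names mark deduplicated reads, which lowers the highest genes. Every column of that table had a sample.

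The kallisto livers were tested with edgeR 4.0.16 (TMM, filterByExpr, robust quasi-likelihood test), with DESeq2 1.42.0 as an alternative. The SE given for edgeR values is the absolute log2 fold change divided by the square root of the F statistic. TPM was tested as log2(TPM + 1) with limma 3.58.1 (trend, robust), for genes averaging 1 TPM or more over the livers of a set, with the set as a term over all 14 livers. Fold changes on that scale understate those of low genes. P-values were adjusted by Benjamini-Hochberg over all genes tested, with a threshold of 0.05. The functions for the edgeR, DESeq2 and limma tests were run on simulated data with known changes, and the other steps were not. The members, gene lists and tests were chosen with earlier results of these data known. Named list genes were the called genes with the smallest p, up to 4 per list, or otherwise up to 2; Hnf4a and the other members were all reported. Of the genes this rule and the pattern search gave, 2 are not reported here. Samples were grouped by title. Alternatives were other scaling, filters, pseudocounts, a Y-chromosome covariate and leaving out each mouse. P-values measure the spread between single mice.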

Additional observations from a re-analysis of the deposited data

Results flagged for a closer look

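FXR (Nr1h4) in A3B liver 49 of the kallisto set, at 38.4 TPM, lay far below the other 5 A3B livers: its gap to the nearest was 0.82 of the whole range of log2(TPM + 1), above the Dixon limit of 0.625. It was the 1 value so marked among 18 sets of 6 values, and chance marks about 1 in 20. Liver 49 was also the lowest A3B liver of its set for Foxa2 (14.8 TPM), Cebpa (38.1), Nr1i3 (47.2) and Onecut1 (3.53). It was not the lowest for Hnf4a, Foxa1, Foxa3 or Nr1i2. Its summed hepatocyte markers were the lowest (66698 TPM), its summed macrophage markers the highest (1024 TPM) and its estimated counts the fewest (65161064). The part of these in its Nr1h4 value was not tested.

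In the pancreas, which entered no comparison, all 6 A3B samples were above both controls for 7 members. The same held for 82.1% of the 13517 genes averaging 1 TPM or more. The A3B mean was 5.98 times the control mean for Hnf4a, 5.53 for Foxa2, 2.6 for Foxa3, 9.26 for Cebpa, 18 for Nr1i2, 12.3 for Nr1h4 and 4.31 for Onecut1, where the median gene stood at 5.02. Nr1i2 was near the floor in the control pancreases, at 0.0344 and 1.02 TPM. The genotype labels of both control pancreases and of A3B pancreases 44 and 137 contradict the titles that set these groups.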

How the results depend on the processing

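No paired analysis was possible because A3B and control livers share no mouse number. The number of members called stayed at 0 in the kallisto livers and for the difference between sets under every alternative run. In the TPM-table livers it ranged from 0 to 2 over the fits that left out a mouse, with Cebpa (-2.34) and Foxa3 (-2.31) called without A3B liver 70. Over both sets it ranged from 0 (without control 91 or control 92) to 4 (without A3B liver 48), and was 1 with no filter. Of 414 alternative values of single members 370 kept direction and call, 23 reversed, 11 gained a call (6 of them Hnf4a and 3 Nr1i2, over both sets) and 10 lost one; the cause was not tested.

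With samples centred on their median gene, values reversed for Foxa1 (-0.25 over both sets), Foxa2 (-0.33 in the table, -0.11 over both) and Nr1h4 (-0.11 over both). Centring moved Cebpa to -1.64 and Foxa3 to -1.48 over both sets, and both still passed. Total-count scaling moved the kallisto values the other way, to -0.59 for Cebpa, -0.32 for Foxa3 and 1.06 for Hnf4a. None of these 3 passed. DESeq2 turned Nr1i2 to -0.021, the Y-chromosome covariate turned Nr1h4 in the table to 0.36, total-count scaling turned Cyp8b1 to 0.10, and leaving out livers 28 and 48 together, chosen after seeing the data, turned Onecut1 over both sets to 0.073. In the table the Y-chromosome covariate and the fit without control 11 gave nearly equal values. For Foxa3 these were -2.18 and -2.19, and for Nr1h4 both were 0.36. The covariate and that fit are therefore not separate checks in this set. Over the fits that left out a mouse, the kallisto livers gave -1.01 to 0.86 for Cyp8b1, -1.39 to 0.0082 for Foxa1, -0.16 to 0.65 for Foxa2, -0.31 to 0.32 for Nr1i2 and -2.16 to 0.12 for Onecut1. The table gave -0.032 to 0.12 for Foxa2, -0.39 to 0.59 for Nr1h4 and -0.076 to 1.19 for Onecut1. Both sets gave -0.00024 to 0.41 for Foxa1 and -0.47 to 0.40 for Onecut1.

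Calls over all genes numbered 636 in the kallisto livers (34.3% higher), 1120 with total-count scaling (78.5% higher; the median gene moved from 0.21 to 0.68), 2351 with DESeq2 (54.9% higher), and 73 and 74 without control 168 and control 45. In the TPM-table livers they numbered 913 (76.6% higher), 675 when centred (45.0% higher), 54 with no filter, 1600 with the Y-chromosome covariate, 1562 without control 11 and 1 without control 91. Over both sets they numbered 3961 (78.4% higher) and 3303 when centred (48.8% higher). DESeq2 called 8 HNF4A targets and 11 PXR and CAR targets in the kallisto livers, against 4 and 4 with edgeR. It called 2351 of 24460 genes, and edgeR 636 of 17365. With 2 controls, the spread of the control group rests on 1 difference between mice.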
